A study of Rattus norvegicus and Mus musculus and Macaca mulatta with 84 samples.

Results

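Liver microRNAs of Zucker fatty rats given BT2 were compared with those of Zucker fatty rats given vehicle. The members are the 10 small RNA libraries titled as BT2-treated (n = 5) or vehicle control (n = 5), out of 20 Zucker libraries and 84 samples in the whole series. BT2 is a small molecule, a benzothiophene carboxylic acid that carries chlorine atoms. The labels describe the Zucker fatty strain by a mutation of the leptin receptor gene. They use the same words for the lean rats, so they do not give the genotype of the BT2 and vehicle rats. The same table holds libraries titled obese (n = 5) and lean (n = 5), which serve below as a second comparison. The labels give no dose, duration, age or sex. Each run name has its own code, but no label says that these codes stand for separate animals. The p-values thus measure only the spread between these libraries, which may be technical. Vehicle replicate 5 has a run name that contains BT2 but begins with D, as those of the other vehicle libraries do. Run names of BT2 libraries begin with B. The title of vehicle replicate 5 was followed. Without that library the same 2 forms were called, and 104 forms had an unadjusted p under 0.05. Of 59 uncalled named forms, 9 moved by over 1.5 times or changed sign.

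BT2 inhibits branched-chain ketoacid dehydrogenase kinase, the enzyme that holds back the breakdown of branched-chain amino acids in liver and other tissues. MicroRNAs are short RNAs that lower the stability and translation of messenger RNAs. They find their targets mainly through the seed, bases 2 to 8 of the mature strand, so microRNAs with 1 seed share many targets. A hairpin precursor can give a strand from each arm, named 5p and 3p, and reads that start a base or more away from the annotated start are offset forms, marked here as (+1) or (-1).

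The mature sequences below belong to the microRNAs on which the comparison turned. They come from RefSeq on GRCr8 and run 5′ to 3′, with the seed in capitals. The first pair shows a shared seed, the second pair the 2 arms of the miR-92a-1 hairpin, the third pair another shared seed, and the last 3 the leading uncalled or low-level forms.
miR-132-3p: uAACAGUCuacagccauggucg
miR-212-3p: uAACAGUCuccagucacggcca
miR-92a-1-5p: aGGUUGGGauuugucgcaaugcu
miR-92a-3p: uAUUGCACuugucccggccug
miR-181a-5p: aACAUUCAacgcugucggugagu
miR-181b-5p: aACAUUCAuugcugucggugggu
miR-423-5p: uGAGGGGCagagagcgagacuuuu
miR-7a-5p: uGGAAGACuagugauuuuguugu
miR-1247-3p: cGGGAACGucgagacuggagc

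The libraries looked like liver. miR-122-5p, the dominant hepatocyte microRNA, held 37.8% to 45.4% of the reads in BT2 libraries and 39.6% to 44.4% in vehicle libraries. Its share averaged 42.9% ± 3.10 with BT2 and 41.6% ± 1.85 with vehicle (SD, n = 5 each; two-sided exact permutation p = 0.460, 0.460 after adjustment over the 2 shares tested). Offset forms held 8.60% ± 0.178 of reads with BT2 and 8.72% ± 0.164 with vehicle (SD, n = 5 each; exact permutation p = 0.286, adjusted 0.460). With 5 libraries in each group no exact test can go below 0.00794. Values are reads per 1000000 (RPM) and every library sums to 1000000, so depth is unknown. Forms listed above 0 numbered 792 to 929 with BT2 and 755 to 958 with vehicle. The lowest value above 0 was 0.7 to 1.58 RPM with BT2 and 0.73 to 1.4 RPM with vehicle. BT2 replicate 4 and vehicle replicate 5 had the highest such value and the fewest forms of their groups. Vehicle replicate 5 correlated with the BT2 libraries at a mean r of 0.985 and with the other vehicle libraries at 0.987, across forms, which does not separate the groups.

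BT2 livers held more miR-132-3p and more miR-92a-1-5p than vehicle livers, and no form was called lower. These were 2 of 422 forms tested, or 0.474%, by limma on log2(RPM + 1) with Benjamini-Hochberg adjustment and a threshold of 0.05. At an unadjusted p under 0.05 there were 73 forms (17.3%), 55 higher (13%) and 18 lower (4.27%) with BT2. In 13 forms (3.08%) all BT2 libraries lay above all vehicle libraries, and in 9 (2.13%) all lay below, so that 22 (5.21%) had ranges apart. The median log2 difference over all tested forms was -0.04.

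**Figure D1:**
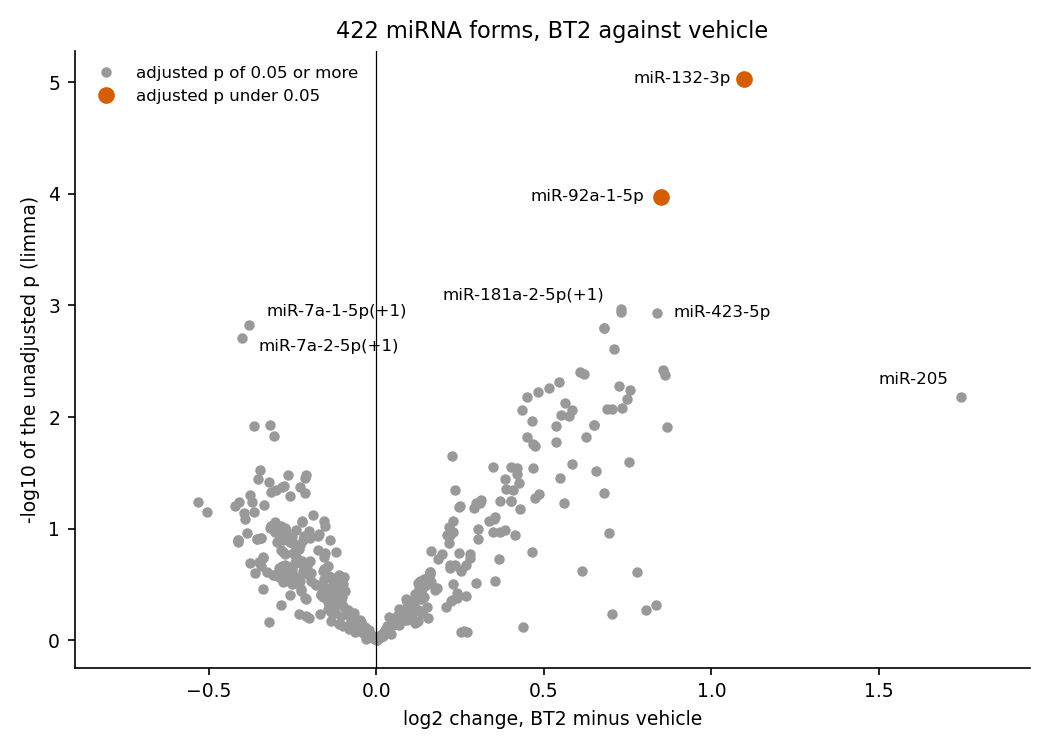
Each point is 1 of 422 tested miRNA forms, with the log2 change of BT2 minus vehicle on the x axis and -log10 of limma's unadjusted p on the y axis. The 2 called forms, miR-132-3p at 1.10 and miR-92a-1-5p at 0.85, stand above the other forms; miR-205 has the largest change, 1.74, at an adjusted p of 0.131.

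miR-132-3p comes from a hairpin shared in 1 cluster with miR-212, whose transcription the factor CREB drives in neurons and other cells. Its mature strand lies at chr10:60522091-60522112 on the plus strand of GRCr8, and that of miR-212-3p at chr10:60521811-60521832. It had 18.89, 13.21, 21.19, 15.90 and 18.60 RPM in the BT2 libraries, against 6.97, 8.38, 7.09, 6.63 and 9.08 RPM in the vehicle libraries. Every BT2 library lay above every vehicle library, and vehicle replicate 5 was the highest of its group. The means were 17.6 ± 3.07 RPM with BT2 and 7.63 ± 1.05 RPM with vehicle (SD, n = 5 each), a 2.30-fold ratio. The log2 change was 1.10 (SE 0.18, limma adjusted p = 0.0039).

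By sequencing lane the log2 difference in miR-132-3p was 1.24 in lane 1 (1 BT2 and 1 vehicle library), 0.95 in lane 2 (1 BT2 and 2 vehicle libraries) and 1.14 in lane 3 (3 BT2 and 2 vehicle libraries). Lanes 1 and 2 have 1 BT2 library each and so no spread to set these against. With lane as a term it was 1.14 (limma adjusted p = 0.0038). Without vehicle replicate 5 it was 1.15 (limma adjusted p = 0.0036). A fit of lane 3 alone did not call it (limma adjusted p = 0.106).

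Other products of the miR-132 and miR-212 cluster were close to 0. miR-212-3p, which has the same seed, had 1.10, 0.98, 1.27, 0 and 0 RPM with BT2, and with vehicle only replicate 2 had a value above 0, at 0.90 RPM. The lowest value above 0 of any form was 1.58 RPM in BT2 replicate 4 and 1.08 RPM in BT2 replicate 5. A listing at 0 in these libraries therefore does not show a lower level than in the other BT2 libraries. miR-132-5p was listed at 0 in all BT2 libraries and in 4 of 5 vehicle libraries. These forms were below the filter and were not tested.

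miR-92a-1-5p is the less abundant arm of a hairpin in the miR-17-92 cluster, a group known for promoting proliferation. It lies at chr15:98588565-98588587 on the plus strand of GRCr8. It had 19.99, 23.99, 18.05, 24.54 and 25.08 RPM with BT2, against 12.13, 12.12, 11.61, 7.90 and 17.21 RPM with vehicle. The ranges did not overlap, but vehicle replicate 5 came within 1 RPM of the lowest BT2 library. The means were 22.3 ± 3.12 RPM with BT2 and 12.2 ± 3.31 RPM with vehicle (SD, n = 5 each), and the log2 change was 0.85 (SE 0.18, limma adjusted p = 0.0224).

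The call on miR-92a-1-5p was less steady than that on miR-132-3p. It was lost in 7 of 10 fits that left out 1 library, with log2 changes from 0.72 to 0.97 over all 10. Leaving out vehicle replicate 5 gave 0.97 (limma adjusted p = 0.0036). With median-of-ratios rescaling of the libraries the change was 0.84 (limma adjusted p = 0.0585).

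**Figure D2:**
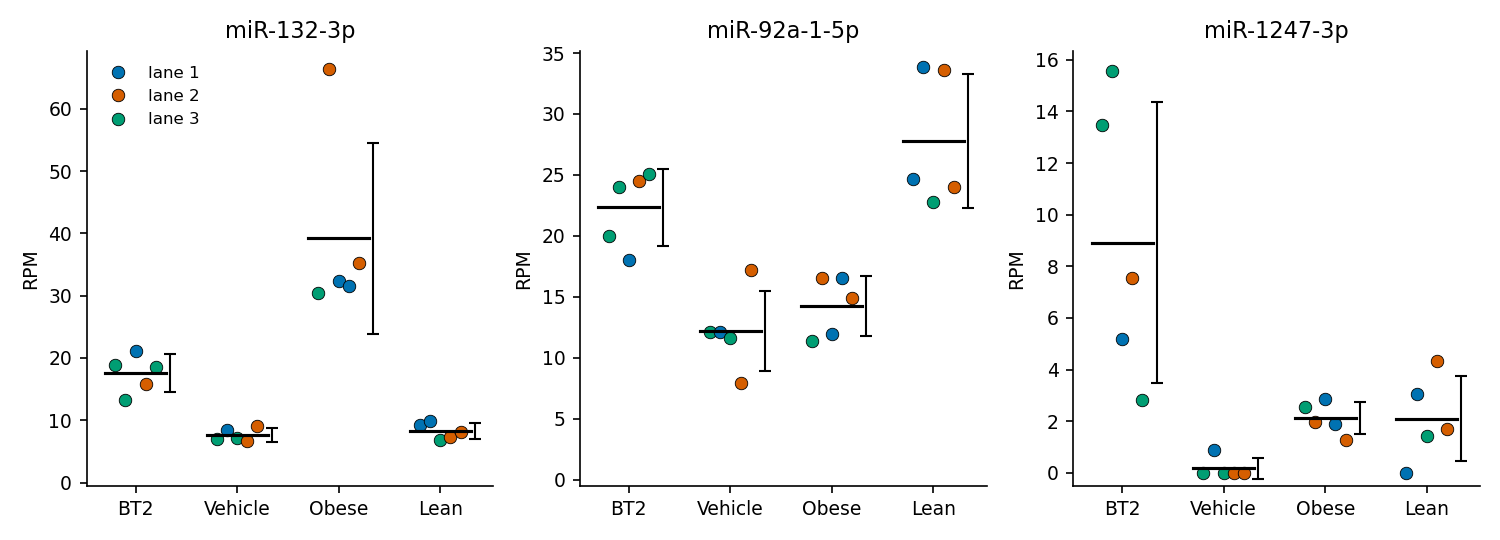
RPM of miR-132-3p, miR-92a-1-5p and miR-1247-3p in each library (points, coloured by sequencing lane), with the mean (bar) and SD (error bar, n = 5). All 5 BT2 libraries lie above all 5 vehicle libraries in each panel; obese rats have the highest miR-132-3p and lean rats the highest miR-92a-1-5p.

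The abundant arm of the same hairpin, miR-92a-1-3p, had 10893, 12469, 9813, 16643 and 15407 RPM with BT2, against 8726, 10716, 7036, 6137 and 10325 RPM with vehicle. One BT2 library lay inside the vehicle range. Its log2 difference of 0.61 was not called (SE 0.19, limma adjusted p = 0.127), and its 4 tested offset forms had differences from 0.47 to 0.57. The same 3p sequence is encoded by miR-92a-2 on chromosome X. The table lists that entry apart, at 156 ± 39.6 RPM with BT2 and 112 ± 22.9 RPM with vehicle (SD, n = 5 each; difference 0.47, limma adjusted p = 0.177). How the authors divided reads between the loci is not given in the sources used here.

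In the miR-17-92 list with its paralogous clusters, 1 of 26 tested forms was called, beside 0.474% over all forms. Differences were positive in 13 and negative in 13, and the median was -0.03, beside -0.04 over all forms. An unadjusted p under 0.05 was found in 9 that were higher, 6 of them entries of the miR-92a-1 hairpin, and in none that were lower. miR-106b-3p averaged 89.0 ± 26.2 RPM with BT2 and 59.2 ± 12.3 RPM with vehicle (difference 0.56). miR-93-5p averaged 1092 ± 135 RPM with BT2 and 931 ± 79.5 RPM with vehicle (difference 0.23). miR-17-1-5p averaged 269 ± 11.9 RPM with BT2 and 290 ± 22.5 RPM with vehicle. miR-20a-5p averaged 430 ± 48.6 RPM with BT2 and 479 ± 79.4 RPM with vehicle (SD, n = 5 each). None of these 4 was called.

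The miR-181 family, known for roles in lymphocyte and vascular signalling, had positive differences in 9 of 9 tested forms, with a median of 0.48. None was called, and 8 had an unadjusted p under 0.05, beside 13% of all forms that were higher at that level and 189 of 422 with a positive difference. The 9 forms come from 5 mature sequences. miR-181a-1-5p had 734.95, 782.53, 868.11, 1281.42 and 1062.65 RPM with BT2, against 501.19, 697.02, 508.28, 486.43 and 745.52 RPM with vehicle. Its difference was 0.68 (SE 0.19, limma adjusted p = 0.0848). The entries of miR-181a at its 2 loci hold nearly the same reads and are not separate evidence. With lane as a term, 8 forms (1.9%) were called, 6 higher (1.42%) and 2 lower (0.474%). These were the 2 called above, 4 entries of miR-181a-5p with its (+1) form (limma adjusted p = 0.0182), and the (+1) forms of miR-7a-1-5p and miR-7a-2-5p.

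miR-423-5p had 269, 330, 217, 396 and 335 RPM with BT2, against 197, 216, 175, 118 and 157 RPM with vehicle. The groups did not overlap, though the lowest BT2 and highest vehicle libraries differed by about 1 RPM. The difference of 0.84 was not called (SE 0.22, limma adjusted p = 0.0848). miR-664-2-5p and miR-320-3p(+2) had differences of 0.71 and 0.86, with limma adjusted p of 0.104 and 0.127. miR-320-3p(+2) was called when lane was a term and the fit held only BT2 and vehicle libraries, at 0.96 (limma adjusted p = 0.0443). miR-205, chosen after its values were seen because its difference of 1.74 was the largest, had 9.37, 6.93, 20.09, 101.70 and 8.05 RPM with BT2, against 10.76, 4.64, 3.87, 1.34 and 4.06 RPM with vehicle. BT2 replicate 4 alone was above 21 RPM, and the groups overlapped (limma adjusted p = 0.131).

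Among forms with negative differences, miR-7a had the smallest unadjusted p by limma, though not the largest difference. miR-7a-1-5p(+1) had 23.58, 21.60, 22.11, 19.83 and 21.22 RPM with BT2, against 28.27, 25.52, 27.50, 30.33 and 30.83 RPM with vehicle. All BT2 libraries lay below all vehicle libraries. The difference was -0.38 (SE 0.10, limma adjusted p = 0.0848), and the canonical miR-7a entries had -0.31 and -0.32. The rest of the 10 forms with the smallest p among negative differences were miR-16-5p(-1), miR-22-5p, miR-203a-3p(+2) and 3 offset forms of let-7f-5p, with differences from -0.37 to -0.21.

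No form of the other lists was called. Over all 422 forms 233 differences were negative and 189 positive. The hepatocyte-enriched list had 29 of 36 negative differences (median -0.20), from 10 mature sequences with their offset forms and loci. Its summed level was 516815 to 587497 RPM with BT2 (median 584778 RPM) and 545947 to 589265 RPM with vehicle (median 566110 RPM). The endothelial list had 6 of 6 negative (median -0.29), all of them arms and offset forms of 1 microRNA, miR-126a, with sums of 3252 to 4228 RPM with BT2 and 3329 to 6833 RPM with vehicle. The bile duct list had 7 of 7 positive (median 0.27), from 5 mature sequences. Its sums were 412 to 844 RPM with BT2 and 351 to 571 RPM with vehicle. The blood cell list had 9 of 12 negative (median -0.07), from 9 mature sequences. Its sums were 1927 to 2298 RPM with BT2 and 1850 to 2493 RPM with vehicle. The stellate and fibroblast list had 6 of 11 positive (median 0.04), with sums of 7627 to 9414 RPM with BT2 and 7618 to 26808 RPM with vehicle; vehicle replicate 2 gave the highest, through miR-143-3p at 24138 RPM. The difference of miR-143-3p was -0.35, and 0.0056 without that library. In bulk liver, fewer cells of a type and less RNA per cell cannot be told apart. The part of these lists in the called differences was not tested. With the GC trend described below removed, the stellate and fibroblast median was -0.31 and so turned negative.

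The miR-15/16 family, which restrains the cell cycle, had 10 of 11 negative differences (median -0.28), from 5 mature sequences. The miR-23/24/27 clusters had 17 of 17 (median -0.12), from 7 mature sequences. The entries of miR-24-3p at its 2 loci, at -0.0051 each, list nearly the same values and are not separate evidence. In the let-7 family 20 of 44 were positive (median -0.02), in the miR-30 family 7 of 19 (median -0.03) and in the insulin and lipid metabolism list 17 of 54 (median -0.12). The cluster of miR-221 and miR-222 had 3 of 3 positive (median 0.27), the cluster that holds miR-182 3 of 3 negative (median -0.22) and that of miR-322 and miR-450 6 of 12 positive (median -0.02). The imprinted Dlk1-Dio3 cluster had 1 tested form, miR-127-3p, at 0.78.

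The members of these lists with a mean of at least 100 RPM and the largest differences were all uncalled, with limma adjusted p from 0.131 upward. Of the hepatocyte-enriched list, miR-194-2-3p averaged 243 ± 52.4 RPM with BT2 and 167 ± 32.7 RPM with vehicle, a difference of 0.54, and miR-194-2-5p(+1) had -0.28. Of the metabolic list, miR-378a-5p, which is encoded within a gene for a mitochondrial regulator, averaged 679 ± 228 RPM with BT2 and 498 ± 82.9 RPM with vehicle (0.41), and miR-802-5p(+1) had -0.42. The endothelial miR-126a-5p averaged 2052 ± 278 RPM with BT2 and 2699 ± 709 RPM with vehicle (-0.37), and miR-126a-3p had -0.28. The bile duct miR-200c-3p had 124.54, 100.79, 205.65, 120.06 and 102.83 RPM with BT2, against 78.59, 96.40, 67.72, 66.54 and 94.44 RPM with vehicle (0.65), with no overlap, and miR-200a-3p had 0.30.

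Within the lists named for families, let-7b-5p averaged 8792 ± 991 RPM with BT2 and 6433 ± 1338 RPM with vehicle (0.47), and let-7d-3p, an opposite arm with another seed, had 0.49. miR-30c-2-3p, likewise an opposite arm, averaged 182 ± 43.4 RPM with BT2 and 131 ± 18.6 RPM with vehicle (0.45), and miR-30d-5p(+1) had 0.31. miR-15b-5p had -0.36, miR-16-5p(+1) -0.30, miR-23a-3p -0.23, miR-23b-3p -0.14 and both loci of miR-322-5p -0.24. With 1 library left out these ran from -0.52 to -0.20 for miR-15b-5p, from -0.31 to -0.11 for miR-23a-3p, from -0.24 to -0.065 for miR-23b-3p and from -0.37 to -0.16 for miR-322-5p. miR-221-3p had 0.27, miR-182 -0.22, and the blood cell list's miR-146b-5p 0.12. All SDs are over 5 libraries each.

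The miR-29 family, named in the title of the series, had 11 tested forms, 5 positive and 6 negative (median -0.14). Canonical forms of the family came from 4 mature sequences. miR-29a-3p, its main member, had 2961, 3062, 3116, 4726 and 3965 RPM with BT2, against 3673, 3894, 3990, 3030 and 2401 RPM with vehicle. The groups overlapped, and the difference was 0.07 (SE 0.15, limma adjusted p = 0.772). It turned negative without BT2 replicate 4 (-0.04) or vehicle replicate 5 (-0.05). miR-29c-1-3p averaged 259 ± 26.1 RPM with BT2 and 347 ± 124 RPM with vehicle (SD, n = 5 each; difference -0.36, limma adjusted p = 0.375), and with 1 library left out its difference ran from -0.52 to -0.18. The entries of miR-29c-3p at its loci list the same values and are not separate evidence. The miR-29b-3p entries, loci of 1 sequence, had the largest differences of the family. miR-29b-1-3p averaged 8.34 ± 1.33 RPM with BT2 and 12.1 ± 5.28 RPM with vehicle (difference -0.41, limma adjusted p = 0.379). With 1 library left out it ran from -0.58 to -0.21. Its BT2 effect differed from the obesity effect, described below, by -1.25 (limma adjusted p = 0.0244), and by -0.98 after rescaling (limma adjusted p = 0.0592).

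The most abundant microRNAs after miR-122-5p were not called. miR-21-5p averaged 50967 ± 6574 RPM with BT2 and 57148 ± 9324 RPM with vehicle, and miR-192-5p 33263 ± 4210 RPM with BT2 and 36875 ± 2519 RPM with vehicle. miR-22-3p averaged 37665 ± 4124 RPM with BT2 and 37553 ± 3216 RPM with vehicle, and miR-26a-5p 33689 ± 3538 RPM with BT2 and 33717 ± 3042 RPM with vehicle (SD, n = 5 each). Their log2 differences were -0.16, -0.16, 0.0014 and -0.0025, none called.

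The difference between BT2 and vehicle moved with base composition. RefSeq gave a mature sequence for 90.7% of the 237 canonical forms tested, all but 22. Across these forms GC content and the log2 difference had Pearson's r of 0.61 and Spearman's rho of 0.67. The 54 forms under 40% GC had a median of -0.23, the 86 from 40% to 50% had -0.04, the 58 from 50% to 60% had 0.23, and the 17 above had 0.47. The same forms had r = -0.02 between obese and lean rats. Forms share libraries and are not independent replicates.

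**Figure D3:**
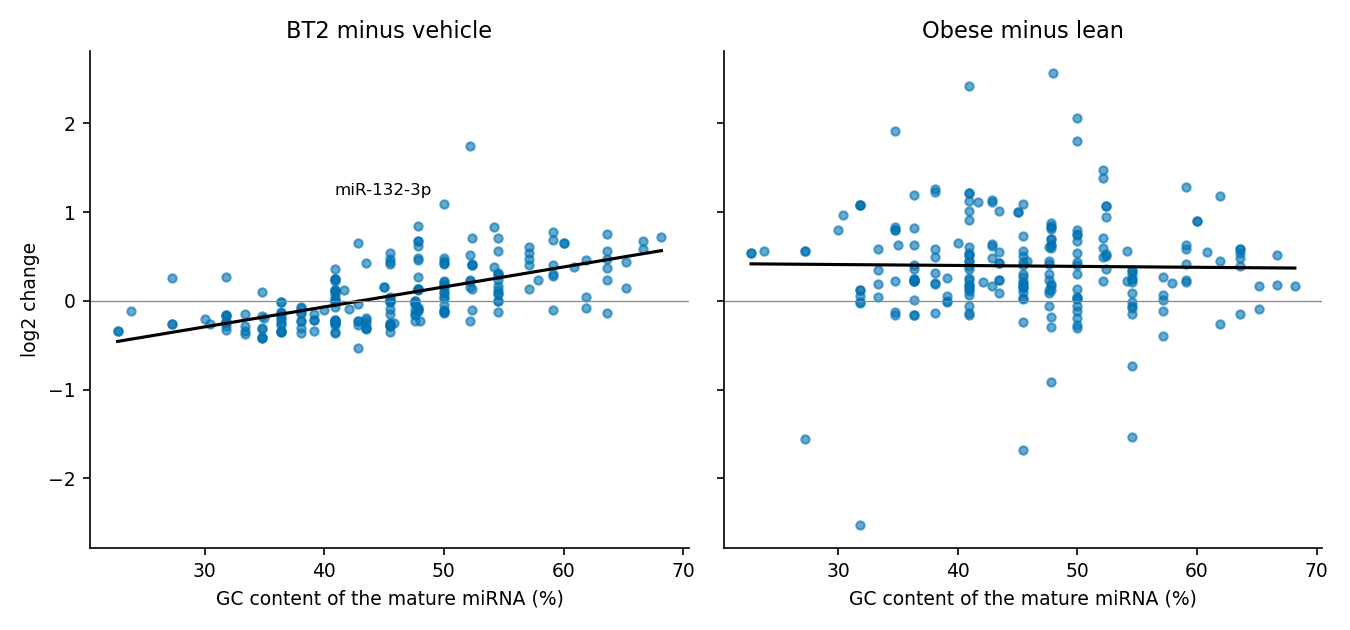
Log2 change against GC content (%) for the canonical miRNA forms with a RefSeq sequence, BT2 minus vehicle on the left and obese minus lean on the right, with a straight-line fit. The left panel slopes upward at 0.225 per 10 percentage points of GC, and the right panel is nearly level at -0.0104.

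The slope of log2 level on GC content, taken in each library relative to all 20, averaged 0.138 ± 0.125 with BT2 and -0.087 ± 0.127 with vehicle (SD, n = 5 each; two-sided exact permutation p = 0.0397). This measure was chosen after the data were seen. The ranges overlapped, at 0.0041 to 0.326 with BT2 and -0.242 to 0.048 with vehicle. With the GC trend removed from each library, miR-132-3p was still called at 0.96 (limma adjusted p = 0.0093), and miR-92a-1-5p was not, at 0.76 (limma adjusted p = 0.0734). Of 55 uncalled named forms with a sequence, 0 were called by limma after the removal, 39 came closer to 0, and 26 stayed within 1.5 times of their value. miR-92a-1-3p was then 0.32 and miR-7a-1-5p(+1) -0.18. The 26 forms within 1.5 times included miR-423-5p at 0.62 and miR-181a-1-5p at 0.59 (limma adjusted p = 0.0819). They also included miR-200c-3p at 0.68, let-7b-5p at 0.44 and miR-16-5p(-1) at -0.40. The miR-181 median was 0.44. List medians that changed sign were those of the stellate and fibroblast list (-0.31), the miR-29 family (0.025), the let-7 family (0.11) and the miR-322 cluster (0.076), and that of the miR-23/24/27 clusters was -0.24.

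**Figure D4:**
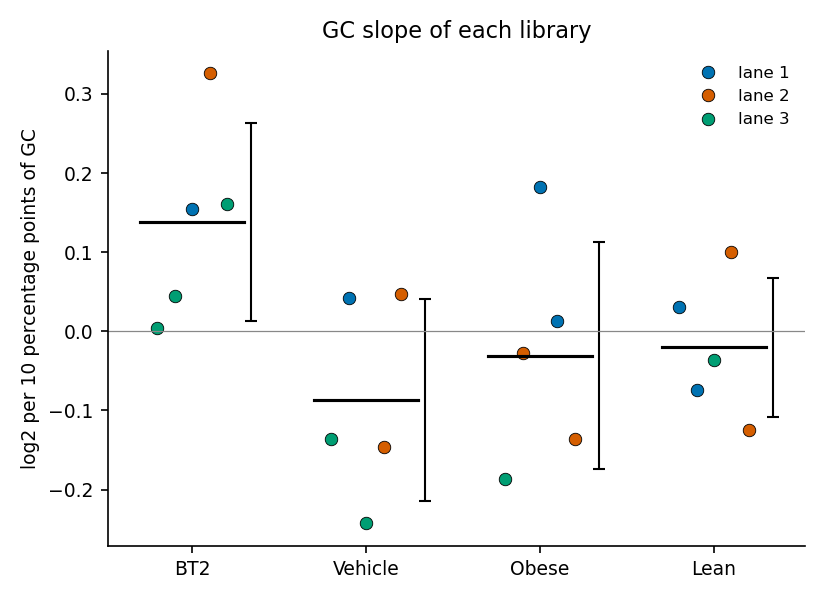
Slope of log2 level on GC content in each library, in log2 units per 10 percentage points of GC (points, coloured by lane), with mean and SD (n = 5). BT2 libraries run from 0.0041 to 0.326 and vehicle libraries from -0.242 to 0.048.

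The BT2 difference was set beside the obesity difference, which uses other libraries. Between obese and lean rats 163 forms (38.6%) were called, 150 higher (35.5%) and 13 lower (3.08%) in obese rats. Both forms called with BT2 were among them. The median log2 difference over all tested forms was 0.27 in this comparison. miR-122-5p held a mean of 38.2% of reads in obese and 44.9% in lean libraries, and RPM values are shares of a fixed total. How much of these counts goes with that shift was not tested. miR-132-3p had 30.36 to 66.33 RPM in obese rats and 6.89 to 9.91 RPM in lean rats, a log2 change of 2.06. BT2 and obesity thus both went with a higher level, but from references that differ. The mean was 39.2 RPM in obese, 17.6 RPM in BT2, 8.30 RPM in lean and 7.63 RPM in vehicle rats. The vehicle level lay near that of lean rats, not of obese rats, and the BT2 level lay below that of obese rats. miR-92a-1-5p had 11.38 to 16.53 RPM in obese rats and 22.79 to 33.89 RPM in lean rats, a log2 change of -0.91, opposite in sign to that with BT2.

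The difference between the 2 effects was called in 95 forms (22.5%), 7 higher (1.66%) and 88 lower (20.9%) for BT2, but in 56, 24 higher and 32 lower, after median-of-ratios rescaling. The 7 were miR-92a-1-5p at 1.76 (SE 0.25, limma adjusted p = 6.8e-05), miR-92a-1-3p with 4 offset forms at 0.91 to 1.00, and miR-672-5p at 0.80. miR-132-3p differed by -0.96 (limma adjusted p = 0.0179), and after rescaling by -0.68 (limma adjusted p = 0.0735). miR-155-5p, an inflammatory microRNA, averaged 79.3 ± 15.9 RPM with BT2 and 73.3 ± 12.0 RPM with vehicle, against 210 ± 37.8 RPM in obese and 55.4 ± 12.9 RPM in lean rats (SD, n = 5 each). Its effects differed by -1.81 (limma adjusted p = 3.9e-05).

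**Figure D5:**
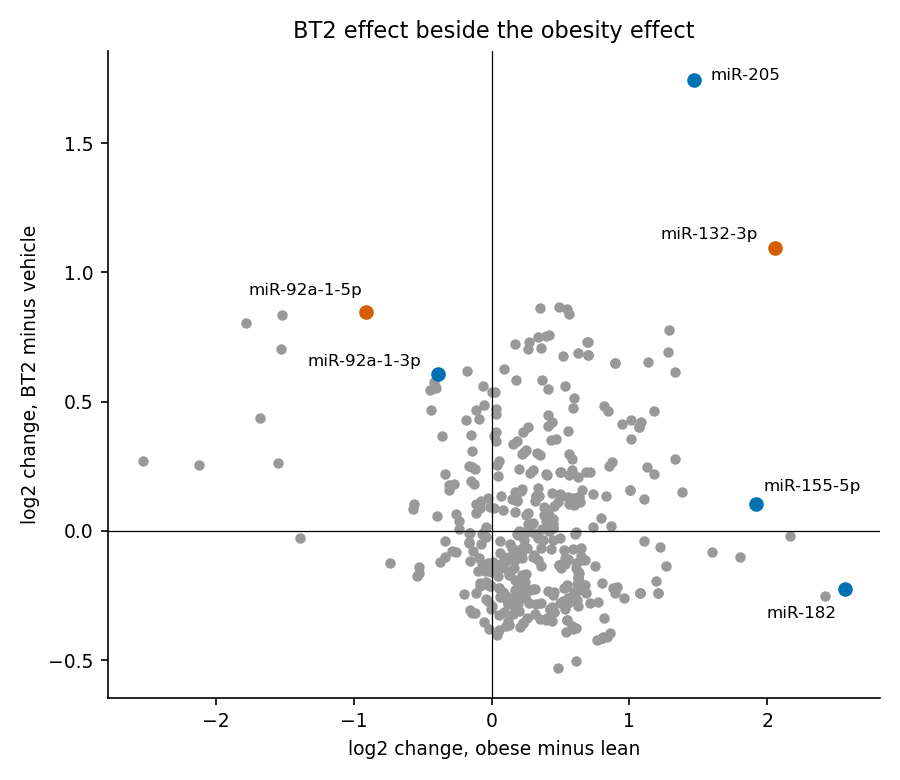
Log2 change of BT2 minus vehicle (y axis) against obese minus lean (x axis) for 422 tested forms; orange points are the 2 forms called with BT2 and blue points are other forms labelled by name. miR-132-3p is positive on both axes (1.10 and 2.06), and miR-92a-1-5p is positive with BT2 (0.85) and negative with obesity (-0.91).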

How the data were processed

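Liver small RNA libraries used TriLink's CleanTag chemistry, per the labels' protocols. The authors deposited reads per 1000000 (RPM) for 1204 miRNA forms in 20 Zucker libraries; each library sums to 1000000 and low values take no fixed step, so whole reads were not recovered and the count models were not used. STAR, Salmon and DESeq2 and the builds rn6, mm9, mm10 and hg19 are named in the submitters' processing notes; the role of each is not given in the sources used here. Groups follow the titles and lanes the run names.

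Tested forms averaged 10 RPM or more over the 20 libraries (422 forms: 237 canonical and 185 offset, 209 mature sequences). log2(RPM + 1) was fitted for all 4 groups with limma 3.58.1 in R 4.3.3 with a variance trend and no lane or block term; its two-sided p-values were adjusted over all forms by Benjamini and Hochberg's method. Fold changes on this scale understate the change of low forms. Single values per library were compared by exact permutation (SciPy 1.17.1). Entries at several loci of 1 mature sequence can hold the same reads.

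The members and lists were chosen with earlier results of these data known. Named forms were every called form, the 10 smallest p in each direction, the forms of the called hairpins, of miR-132 and miR-212 and canonical miR-29, up to 2 members per list with a mean of at least 100 RPM and the largest change, and the 5 most abundant. miR-205 and miR-1247-3p were added after their values were seen. Alternatives were scaling, pseudocount (0.5 and 5), filter (none and 50 RPM), libraries, variance trend, lane, replicate block, averaged loci and each library left out; removal of the GC trend, forms with a RefSeq sequence, lane within 2 groups and leaving out the 2 libraries with the fewest forms were added after seeing the data.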

Additional observations from a re-analysis of the deposited data

Results flagged for a closer look

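miR-1247-3p lay below the filter of 10 RPM and entered no test above; the plot of called forms by library shows its values. It had 13.47, 15.56, 5.17, 7.56 and 2.82 RPM with BT2 (mean 8.92 RPM), against 0.90 RPM in vehicle replicate 2 and a listing at 0 in the other 4 vehicle libraries. The lowest value above 0 of any form was 0.73 to 1.4 RPM in the vehicle libraries, so a listing at 0 does not show absence. Obese rats had 1.27 to 2.86 RPM of miR-1247-3p and lean rats 0 to 4.32 RPM. Without a filter miR-1247-3p was called at a difference of 2.93 on the log2(RPM + 1) scale (limma adjusted p = 0.000537). Its GC content is 66.7%.

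Single libraries stood far from the rest of their group in 9 of 130 groups checked. The threshold used, Dixon's critical value, is built to flag about 1 in 20 groups by chance. BT2 replicate 4 was highest for miR-205 at 101.7 RPM and for miR-29b-2-3p and miR-29b-3-3p at 10.66 RPM each, which are loci of 1 sequence. BT2 replicate 3 was highest for miR-200c-3p at 205.65 RPM. BT2 replicate 1 was highest for miR-182 at 485.98 RPM and lowest for miR-221-3p at 380.77 RPM. Vehicle replicate 2 was highest for miR-143-3p at 24137.5 RPM and for its (-1) form at 440.04 RPM. Vehicle replicate 5 listed the fewest forms above 0, at 755, and its lowest value above 0, at 1.4 RPM, was the highest of the vehicle libraries.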

How the results depend on the processing

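The count of 2 called forms became 1 with median-of-ratios rescaling, with BT2 and vehicle libraries only and with the GC trend removed. It became 0 with a mean of at least 50 RPM, since both forms lie below it, and 0 in lane 3 alone, where 112 forms had an unadjusted p under 0.05. It was 8 with lane as a term and 1 to 4 when 1 library was left out. miR-132-3p was called in 23 of 25 alternatives, and not in lane 3 alone (1.14, limma adjusted p = 0.106) or with the replicate block. miR-92a-1-5p was not called in 13 of 25. Among these its log2 change was 0.84 with rescaling, 0.89 in lane 3 and 0.76 with the GC trend removed. It was 0.85 with the 2 groups only, with lane in the 2 groups and with the replicate block. The rest were 7 of the 10 fits with 1 library left out. Over all 10, called and uncalled, the change ran from 0.72 to 0.97. Why the call was lost was not tested.

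The labels do not say that replicate numbers pair the samples. Correlations of same-numbered deviations ran from -0.59 to 0.29, 1 of 5 was over 0.1, and 0 libraries correlated best with their own number. This check runs across forms and cannot show whether animals were paired. With the replicate block 0 forms were called by limma, 80 had an unadjusted p under 0.05, and the changes were 1.10 for miR-132-3p (limma adjusted p = 0.132) and 0.85 for miR-92a-1-5p (limma adjusted p = 0.203).

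The count of forms whose BT2 and obesity effects differed was 56 with rescaling and 57 to 125 with 1 library left out; it was 58 without BT2 replicate 5, 63 without obese replicate 2 and 57 without obese replicate 5.

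Leaving out 1 library moved 28 of 59 uncalled named forms by over 1.5 times or turned their sign. Of the 59, 9 changed sign in 33 of 1509 alternatives. With the GC trend removed let-7f-2-5p(+1) was 0.048, let-7f-1-5p(+1) 0.048, miR-29a-5p 0.025, miR-21-5p 0.0010, miR-22-3p -0.033 and miR-26a-5p 0.061. In lane 3 miR-29a-3p was -0.21, miR-143-3p(-1) 0.073, miR-22-3p -0.087 and miR-26a-5p 0.046. Without the 2 libraries listing the fewest forms miR-29a-3p was -0.16 and miR-22-3p -0.084. With lane as a term miR-22-3p was -0.0086 and miR-26a-5p 0.022, and in the 2 groups alone -0.012 and 0.033. miR-22-3p was -0.0087 with rescaling, and miR-26a-5p 0.029 per 1000000 reads other than miR-122-5p. With 1 library left out miR-29a-3p ran from -0.049 to 0.13, miR-29a-5p from -0.29 to 0.012, miR-143-3p from -0.47 to 0.0056, miR-143-3p(-1) from -0.49 to 0.027, miR-22-3p from -0.044 to 0.060 and miR-26a-5p from -0.063 to 0.032. Unknown depth leaves the counting error of low forms such as miR-132-3p unknown.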
